A study of Saccharomyces cerevisiae with 12 samples.

Results

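Transcript levels were followed in budding yeast cells without mitochondrial DNA (ρ0 cells) as glucose was taken away. The comparison used the 3 arrays titled as ρ0 cells in 2% glucose and the 3 arrays titled as ρ0 cells without glucose, which are 6 of the 12 arrays of the series. The other 6 arrays came from cells with mitochondrial DNA (ρ+ cells), 3 with and 3 without glucose, and served to set the ρ+ response beside that of ρ0. All cultures grew at 22 °C in complete medium with 2% glucose to early log phase. One portion of each master culture was harvested there, and the other was spun down, washed and shaken for 4 h in complete medium that lacked glucose. No culture was washed and shaken for those 4 h with glucose present, so "withdrawal" below means the wash and the further culture as well as the loss of glucose. The sources used here give neither the strain background nor how the ρ0 cells were obtained. RNA was extracted from equal numbers of cells and selected for poly(A) tails before labelling. The labels call the replicates biological. They do not say which arrays share a master culture, so the main fit treated the arrays as unpaired. P-values from the fit set each change against the spread between replicate arrays, estimated over all 4 groups, ρ+ included.

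Glucose represses genes for the use of other carbon sources. When it runs out, the Snf1 kinase is activated, repressors such as Mig1 lose their hold, and genes for high-affinity sugar uptake, the glyoxylate cycle, gluconeogenesis, fatty acid oxidation and respiration are induced. Mitochondrial DNA of yeast encodes core subunits of the cytochrome bc1 complex, cytochrome c oxidase and the ATP synthase, and a protein of the mitochondrial ribosome. Cells without it cannot respire and live by fermentation, and they still need mitochondria for other work such as iron-sulfur cluster assembly.

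The measured value was the array signal of a probe set in arbitrary units. Signals were compared as log2(signal + 1.50), with limma over all 12 arrays, and a gene counted as changed at a Benjamini-Hochberg adjusted p under 0.05 over 5361 genes. A signal above 5.82, the 25th percentile of all signals, counted as detected. Correlations across genes between replicate ρ0 arrays ranged from 0.956 to 0.980, and the median standard error of a ρ0 log2 change was 0.213. All 8 marker genes of mitochondrial DNA stayed at or under the detection level on the 6 ρ0 arrays, including OLI1 and COX1, which were detected in ρ+. This check is partial, because 6 of the 8 were undetected on the ρ+ arrays too. The 6 markers of a cells summed to signals of 6729 to 9624 on the ρ0 arrays and the 4 markers of α cells to 58.5 to 106. On 2 ρ0 arrays the signal of the hybridization control CreX was low, 285 on glucose replicate 2 and 487 on replicate 1 without glucose, against 758 to 843 on the other 4. Leaving both out gave 227 genes higher and 508 lower, against 246 and 666 with them.

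Withdrawal changed 912 genes in ρ0 cells, and falls outnumbered rises. A rise was called for 246 genes (4.59% of those tested) and a fall for 666 (12.4%). The counts by gene list below are to be read beside these shares. The change was 2-fold or more for 63 and 201 of them. Signals with and without glucose did not overlap for 233 of the 246 and 630 of the 666. The calls were made on these same arrays, so the counts add no separate support. The share over all genes is not given here. Over all genes the median log2 change was −0.11, and the balance of rises and falls depended on the scaling: quantile normalization gave 350 higher and 495 lower, median centring gave 444 and 382, and scaling to the poly-A control transcripts gave 61 and 413. With a trend on gene length removed, as described below, 347 of 5199 protein-coding genes were higher (6.67%) and 346 lower (6.66%). Among the genes named below, median centring ended the falls of ICL1, MIG2, NRG2, RTG1, SOL4, RPO31, ATP17 and ATP18 (adjusted p 0.0699 to 0.179), quantile normalization ended the first 6 of these (0.0564 to 0.196), and poly-A scaling ended 32 calls. Leaving out 1 ρ0 array moved the counts as well, most of all without glucose replicate 3 (110 higher, 360 lower) and without replicate 1 lacking glucose (129 and 386). Without replicate 2 lacking glucose the counts were 152 and 450. The call stood without each of the 6 ρ0 arrays in turn for 81 of the rises and 303 of the falls.

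**Figure D1:**
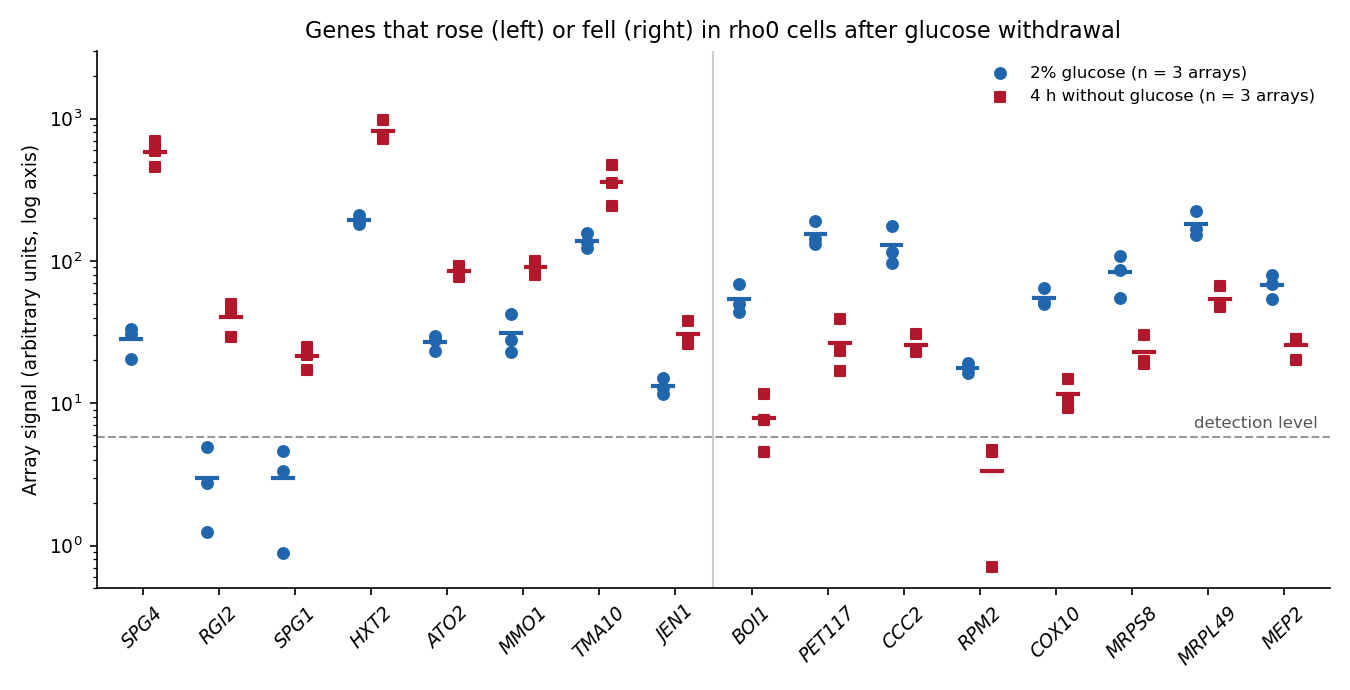
Array signal (log axis, arbitrary units) of 8 genes that rose and 8 that fell in ρ0 cells. Blue circles are the 3 arrays with 2% glucose, red squares the 3 arrays after 4 h without it, short bars the group means, and the dashed line is the detection level of 5.82. For each of these genes the groups do not overlap, and RGI2 and SPG1 lie under the detection level on all 3 glucose arrays.

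SPG4, a gene needed for survival in stationary phase, had the largest rise. Its signals were 20.4, 33.5 and 30.6 with glucose and 593, 459 and 697 without (log2 change 4.31 ± 0.21 SE, adjusted p = 8.75e-09). RGI2, named for its induction in respiratory growth, measured 1.24, 2.78 and 4.97 with glucose and 49.6, 29.1 and 43.3 without (adjusted p = 6.15e-06). It was undetected on all glucose arrays and rose at least 6.82-fold against the detection level. SPG1, another gene of stationary-phase survival, went from below detection to above it on every array (3.37, 0.894 and 4.66 with glucose and 25.02, 17.3 and 21.8 without), at least 3.63-fold (adjusted p = 0.000275). TMA10, whose product associates with ribosomes, measured 158.5, 123 and 136 with glucose and 351, 243 and 475 without (log2 1.30, adjusted p = 0.00177). The paralog of RGI2 behaved differently: RGI1 measured 267, 463 and 165 with glucose and 322, 309.6 and 308 without, with overlapping groups (log2 0.19, adjusted p = 0.675), and its change was below 0 without glucose replicate 3 (log2 −0.17). Over the 18 tested genes of stationary phase and respiratory growth, 4 rose and 2 fell, and with the length trend removed 6 were higher and 1 lower (6.67% and 6.66% of coding genes). The falls included YRO2, a gene for a plasma membrane protein, at 418, 461 and 422 with glucose and 85.1, 156 and 141 without (log2 −1.80, adjusted p = 9.86e-05). The list's median log2 change was 0.21, against −0.11 for all genes; it ran from 0.11 to 0.34 with 1 ρ0 array left out and was 0.61 with the length trend removed. Falls numbered 1 without glucose replicate 3 or replicate 1 or 2 lacking glucose. MMO1, outside this list, rose from signals of 22.8 to 42.4 to signals of 79.3 to 100.3 (log2 1.55, adjusted p = 0.000373).

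The sugar transporters that work at low glucose rose. HXT2, a transporter of moderate to high affinity, measured 182, 210.0 and 192 with glucose and 773, 717 and 985 without (log2 2.06 ± 0.18 SE, 4.18-fold, adjusted p = 6.8e-06). The high-affinity pair HXT6 and HXT7 share nearly all of their sequence, and their probe sets are of a kind that can be shared by similar transcripts. HXT6 measured 274, 709 and 287 with glucose and 1758, 1369 and 1739 without (log2 2.07, adjusted p = 0.000513). HXT7 measured 326, 683 and 315 with glucose and 1196, 1004 and 1152 without (log2 1.43, adjusted p = 0.00171). On both, glucose replicate 2 was well above the other glucose arrays, and it still lay below every array without glucose. HXT5, which is expressed in slow growth, rose less (log2 0.69, adjusted p = 0.0448), a call lost without glucose replicate 1 or 3 or without replicate 1 or 3 lacking glucose (adjusted p 0.0646 to 0.158). It was also lost without any ρ+ array but the third with glucose (0.0511 to 0.0602). The low-affinity transporters that serve at high glucose did not pass: HXT1 measured 1598, 1720.1 and 1754 with glucose and 1234, 1222 and 1719 without (log2 −0.30, adjusted p = 0.364), and HXT3 measured 3334, 4004 and 2952 with glucose and 3459, 3537 and 2808 without (log2 −0.07, adjusted p = 0.773). In both pairs of groups the arrays overlapped. In all, 4 of 8 tested hexose transporters rose and none fell, with a median of 0.55.

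SUC2, the invertase that splits sucrose outside the cell, rose from signals of 32.1 to 40.1 to signals of 56.8 to 84.4 (log2 0.98 ± 0.18 SE, adjusted p = 0.00204). Its probe set can also be shared by similar transcripts. HXK1, the hexokinase that glucose represses, measured 489.5, 712 and 497 with glucose and 932, 689 and 720.1 without and overlapped (log2 0.47, adjusted p = 0.0932). Glucose replicate 2 was its highest glucose array, and without that array the change passed (adjusted p = 0.0192). GLK1, for glucokinase, passed narrowly (log2 0.44, adjusted p = 0.042), and not without any single ρ0 array other than glucose replicate 2 (adjusted p 0.0671 to 0.148). It was also lost without ρ+ glucose replicate 2 or 3 or ρ+ replicate 1 lacking glucose (0.0516 to 0.06). With HXT2, HXT6 and HXT7 this made 5 rises and no falls among 12 tested genes of glucose-repressed sugar use. The 19 tested genes of glycolysis and fermentation held no call in either direction, and their log2 changes lay between −0.10 and 0.49.

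Among 25 tested regulators of glucose sensing and repression, 1 rose and 5 fell. REG2, a regulatory subunit of the phosphatase Glc7 that opposes Snf1, measured 8.82, 8.96 and 14.0 with glucose and 20.3, 19.7 and 32.2 without (log2 1.07, adjusted p = 0.00369). STD1, which acts in both the Snf1 and the glucose sensor pathways, fell from 113 ± 8.26 (SD, n = 3) to 42.8 ± 13.7 (log2 −1.41, adjusted p = 0.00033). TOS3, one of the kinases that activate Snf1, measured 55.1, 84.2 and 71.6 with glucose and 29.9, 33.8 and 32.3 without (log2 −1.08, adjusted p = 0.00256), again without overlap. The other falls were in the glucose sensor SNF3 (log2 −1.12) and the repressors MIG2 (−0.80) and NRG2 (−0.57), all at adjusted p between 0.0203 and 0.0417. These were fragile: SNF3 was lost without glucose replicate 2 or without replicate 1 or 2 lacking glucose, NRG2 without glucose replicate 1 or 3 or without replicate 1 or 2 lacking glucose, and MIG2 without any single ρ0 array other than glucose replicate 1 (adjusted p 0.0537 to 0.131 over the 3 genes). MIG2 was also lost without ρ+ glucose replicate 1 (0.0504) or ρ+ replicate 1 lacking glucose (0.054). With signals floored at the detection level SNF3 changed by −0.22 (adjusted p = 0.39). Falls on the list numbered 3 under each of the 3 scalings and with the length trend removed, 3 without glucose replicate 2 or 3 and 2 without replicate 1 or 2 lacking glucose.

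Permeases for small carbon and nitrogen compounds moved in opposite directions. ATO2, of the acetate and ammonium transporter family, rose, with signals of 23.3, 29.6 and 27.7 with glucose and 92.9, 77.0 and 85.2 without (log2 1.61 ± 0.17 SE, adjusted p = 3.92e-05). JEN1, the lactate and pyruvate permease, measured 15.1, 11.7 and 12.8 with glucose and 27.8, 26.3 and 37.8 without (log2 1.12, adjusted p = 0.00151). ADY2, the acetate transporter, measured 5.74, 6.29 and 10.5 with glucose and 10.03, 11.1 and 20.6 without. Its groups overlapped by a small margin and it missed the threshold (log2 0.75, adjusted p = 0.0602), but it passed without glucose replicate 3 (adjusted p = 0.0341). It passed as well with the replicate number fitted as a block (0.0106). ATO3, of the same family as ATO2, passed at adjusted p = 0.0435 (log2 0.62), and not without any single ρ0 array other than glucose replicate 2 (0.0541 to 0.124). It was also lost without ρ+ glucose replicate 1 or any single ρ+ array lacking glucose (0.0519 to 0.0588). Both ammonium permeases on the list that were called fell. MEP3 measured 160.2, 175 and 143 with glucose and 54.6, 54.6 and 44.1 without (log2 −1.62, adjusted p = 2.88e-05). MEP2, the high-affinity ammonium permease that also acts as a sensor, measured 69.4, 54.5 and 79.1 with glucose and 20.3, 28.2 and 28.2 without (log2 −1.35, adjusted p = 0.000279). Neither gene's groups overlapped.

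Few genes for the enzymes that turn ethanol and acetate into sugar were called. Of 22 tested genes of the glyoxylate cycle and gluconeogenesis, 2 rose and 1 fell, with a median of −0.03, and 1 rose without glucose replicate 3 or replicate 1 lacking glucose. ADH2, the glucose-repressed alcohol dehydrogenase that oxidises ethanol, measured 29.6, 30.5 and 31.01 with glucose and 43.9, 52.2 and 48.6 without (log2 0.64, adjusted p = 0.012). ALD4, the mitochondrial aldehyde dehydrogenase, measured 120.2, 128 and 107 with glucose and 191, 167 and 188 without (log2 0.62, adjusted p = 0.0191), a call lost without glucose replicate 3 (adjusted p = 0.0816) or replicate 1 lacking glucose (0.0664). ICL1, the isocitrate lyase that opens the glyoxylate cycle, was the member that fell: 17.9, 21.7 and 20.5 with glucose and 15.5, 12.5 and 11.4 without (log2 −0.56, adjusted p = 0.0444). That call was lost without any single ρ0 array other than replicate 1 lacking glucose (adjusted p 0.0519 to 0.118). It was also lost without any ρ+ array but the third with glucose (0.0522 to 0.0583). PCK1, the gluconeogenic phosphoenolpyruvate carboxykinase, overlapped between groups at 37.96, 25.6 and 40.2 with glucose and 26.6, 20.4 and 29.6 without (log2 −0.41, adjusted p = 0.282).

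Peroxisomal fatty acid oxidation showed 2 rises and no fall among 14 tested genes, with a median of −0.01. No fit with a ρ0 array left out kept both rises: there were none without glucose replicate 1 or replicate 1 or 2 lacking glucose, and 1 without each of the others. POT1, the thiolase of this pathway, measured 7.53, 10.1 and 10.7 with glucose and 15.5, 7.07 and 6.94 without. CTA1, the peroxisomal catalase, measured 8.33, 8.02 and 6.20 with glucose and 8.28, 7.18 and 7.47 without. Both stayed close to the detection level with overlapping groups. Of the 11 tested genes of the tricarboxylic acid cycle from 2-oxoglutarate onwards, 2 passed, KGD1 (log2 0.67, adjusted p = 0.0285) and KGD2 (log2 0.58, adjusted p = 0.037), which encode subunits of 2-oxoglutarate dehydrogenase. Each was lost without glucose replicate 1 or 3 or without replicate 1 or 2 lacking glucose (adjusted p 0.0514 to 0.143 for KGD1 and 0.11 to 0.121 for KGD2). KGD2 was also lost without ρ+ glucose replicate 2 (0.0539) or ρ+ replicate 1 lacking glucose (0.0502).

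Of 27 tested nuclear genes for the respiratory chain 2 fell and none rose, beside 12.4% of all genes lower and 4.59% higher. Falls numbered 4 without glucose replicate 1 and 6 without replicate 3 lacking glucose, and with the length trend removed 2 were higher and 1 lower. The median of −0.16 became 0.01 after median centring and 0.12 with the length trend removed. COX5B, the low-oxygen form of cytochrome c oxidase subunit 5, measured 146, 141 and 205 with glucose and 82.2, 54.6 and 108 without (log2 −1.02, adjusted p = 0.00806). COX6, another subunit of the oxidase, measured 242, 259 and 311 with glucose and 152, 137 and 187 without (log2 −0.77, adjusted p = 0.00809). Of 17 tested genes of the ATP synthase and its inhibitors 2 rose and 5 fell, the rises in the catalytic head and the falls in the membrane part. ATP2, the β subunit of the head, rose at 283, 141 and 288 with glucose and 413, 472 and 453 without (log2 0.97, adjusted p = 0.012). ATP1, the α subunit, rose with a log2 change of 0.65 (adjusted p = 0.0357), a call lost without glucose replicate 3 (adjusted p = 0.16), replicate 1 lacking glucose (0.166) or ρ+ glucose replicate 2 (0.0527), the last through the shared estimate of spread. The falls were in genes for small membrane subunits, 3 of which join the enzyme into dimers: ATP19 measured 309.9, 340.3 and 453 with glucose and 133, 139 and 233 without (log2 −1.15, adjusted p = 0.00385), ATP20 changed by −0.96 (adjusted p = 0.00755) and TIM11 by −0.92 (adjusted p = 0.00306). ATP17, of the membrane part, fell by less (log2 −0.63, adjusted p = 0.0171) and was lost without glucose replicate 1 or 3 or replicate 2 lacking glucose (0.057 to 0.076). The other fall was in ATP18 (log2 −0.61, adjusted p = 0.0134). ATP1, ATP17 and ATP18 lie outside the naming rule and were named after their values were seen. With the length trend removed, 3 members of the ATP synthase list were higher and 1 lower. INH1, the inhibitor that blocks the head when the proton gradient fails, measured 15.03, 14.4 and 16.9 with glucose and 14.2, 8.98 and 11.9 without and did not pass (log2 −0.38, adjusted p = 0.22).

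Many genes for building cytochrome c oxidase fell. Of 42 tested factors for its assembly and for mitochondrial mRNAs, 18 fell and none rose, beside 12.4% of all genes lower, and the median was −0.64. PET117, an assembly factor, measured 131, 143 and 191 with glucose and 23.3, 16.9 and 39.2 without (log2 −2.55 ± 0.28 SE, adjusted p = 6.48e-05). COX10, which makes the heme A precursor, measured 49.8, 51.4 and 64.6 with glucose and 9.32, 10.9 and 14.7 without (log2 −2.12, adjusted p = 3.51e-05). PET309, the activator of COX1 mRNA translation, was detected on every glucose array and on no array without glucose, a fall of at least 1.44-fold (adjusted p = 0.00991). Its call was lost without both arrays of low control signal (adjusted p = 0.0532). The number of falls on the list ranged from 14 to 22 when 1 ρ0 array was left out and was 16 under each of the 3 scalings. The COX1 mRNA, whose translation PET309 activates, was undetected in ρ0 cells.

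Mitochondrial ribosomal protein genes had the most falls of the 49 lists counted. Of 77 tested, 38 fell, 1 rose and 38 did not pass. Their median log2 change was −0.65, and 70 of 77 changes were below 0. MRPS8, of the small subunit, measured 86.5, 54.7 and 109 with glucose and 19.7, 18.8 and 30.0 without (log2 −1.78, adjusted p = 0.000238). For the large subunit, MRPL49 measured 167, 153 and 224 with glucose and 48.3, 47.6 and 66.6 without (log2 −1.71, adjusted p = 0.000197) and MRPL20 measured 157.5, 163 and 204 with glucose and 39.9, 71.4 and 56.6 without (log2 −1.65, adjusted p = 0.000197). MRPL44, also of the large subunit, measured 107, 104.5 and 111 with glucose and 32.1, 41.2 and 37.0 without (log2 −1.51, adjusted p = 4.77e-05). In each of these 4 genes the lowest glucose array lay above the highest array without glucose. The member that rose was MRP4, of the small subunit (log2 0.87, adjusted p = 0.0437), named after its value was seen. It did not pass without any single ρ0 array other than glucose replicate 2 (adjusted p 0.0576 to 0.131), nor without ρ+ glucose replicate 2 or 3 or ρ+ replicate 1 lacking glucose (0.0514 to 0.0588). The count of falls ran from 30 to 47 with 1 ρ0 array left out and was 36 with quantile normalization, 32 with median centring and 32 with poly-A scaling.

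Other lists of mitochondrial gene expression and protein import had fewer falls, beside 12.4% of all genes lower. RPM2, the protein subunit of mitochondrial RNase P, measured 17.8, 19.1 and 16.3 with glucose and 4.58, 0.704 and 4.73 without. It was detected on all glucose arrays and on none without glucose, a fall of at least 3.04-fold (adjusted p = 0.00101). MSR1, the mitochondrial arginyl-tRNA synthetase, fell from 69.5 ± 13.2 (SD, n = 3) to 24.7 ± 3.97 (log2 −1.43, adjusted p = 0.000228), 1 of 6 falls and no rises among 32 tested translation factors and tRNA synthetases. SUV3, the helicase of the mitochondrial RNA degradosome, measured 37.7, 43.0 and 33.3 with glucose and 15.02, 16.8 and 18.8 without (log2 −1.10, adjusted p = 0.00172). For mtDNA maintenance and transcription as a whole, 4 of 16 fell and none rose, or 2 without glucose replicate 3 or replicate 1 or 2 lacking glucose. In protein import, 9 of 36 fell and 1 rose. The small carriers of the intermembrane space led the falls: TIM9 measured 171, 149.9 and 153 with glucose and 67.4, 79.4 and 68.7 without (log2 −1.12, adjusted p = 0.000652), TIM10 measured 633, 714 and 696 with glucose and 328, 305 and 317 without (log2 −1.10, adjusted p = 0.000203) and TIM12 changed by −0.97 (adjusted p = 0.00308). TOM40, the channel of the outer membrane, was the import gene that rose (log2 0.68, adjusted p = 0.0231), and it was lost without glucose replicate 3 or without replicate 1 or 2 lacking glucose (0.0672 to 0.119).

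**Figure D2:**
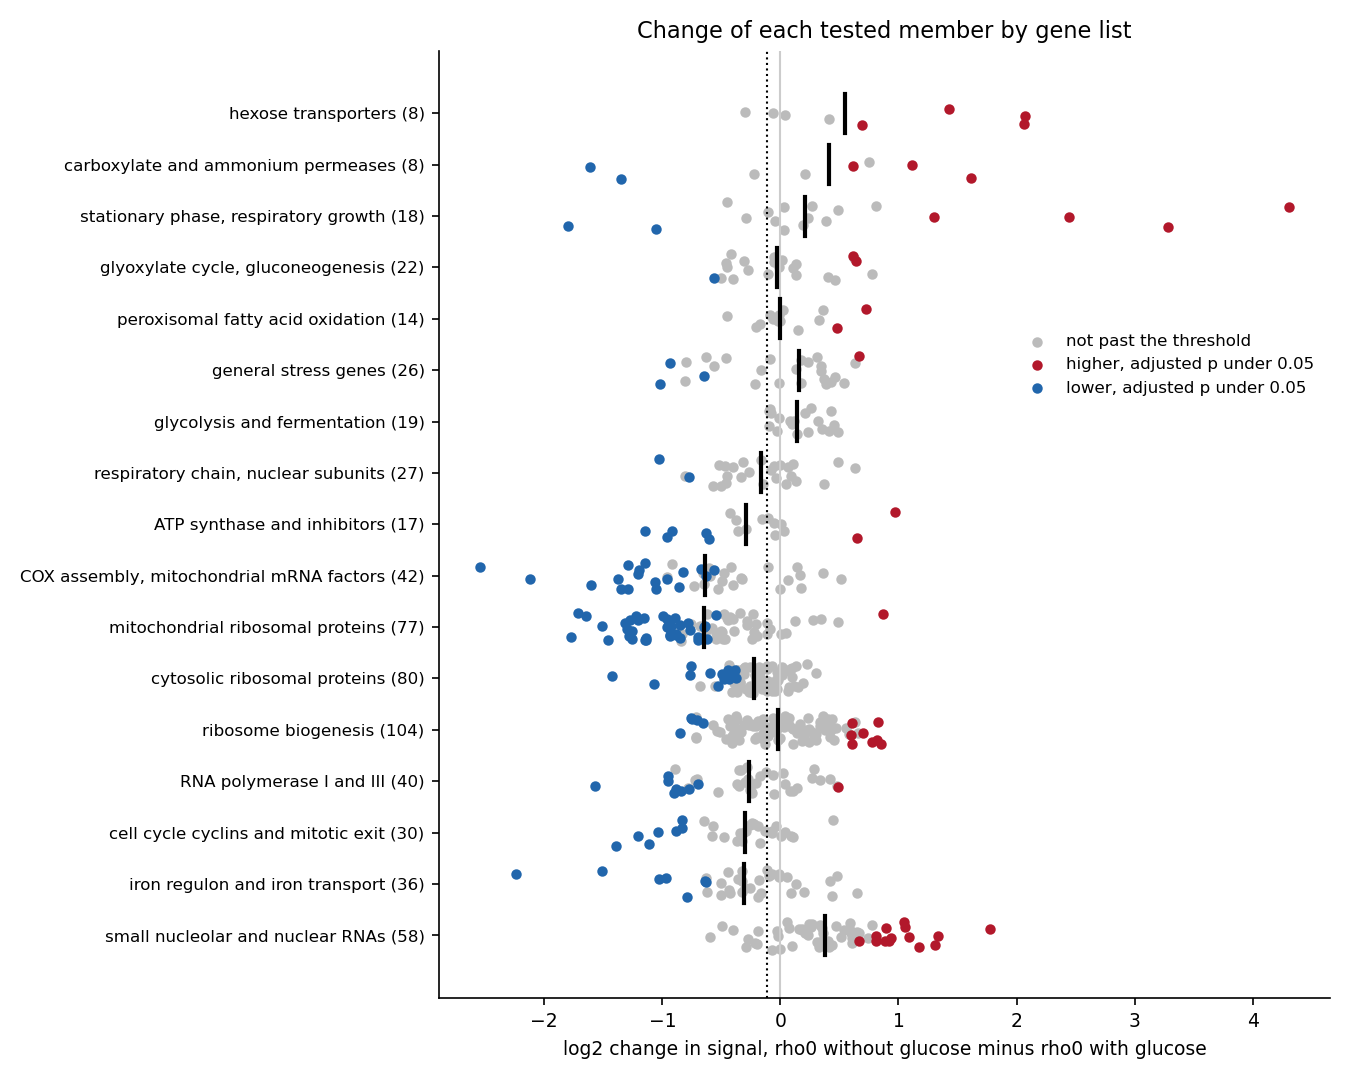
Log2 change in ρ0 cells (without minus with glucose) of each tested member of 17 gene lists, the number tested in parentheses. Red points are higher and blue points lower at adjusted p under 0.05, grey points did not pass, black bars are list medians and the dotted line is the median of all genes, −0.11. Mitochondrial ribosomal protein genes (38 of 77 lower) and oxidase assembly factors (18 of 42 lower) lie to the left, and hexose transporters (4 of 8 higher) to the right.

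Short genes fell more often than long ones in ρ0 cells. Over 5199 protein-coding genes the log2 change correlated with coding length at a Spearman coefficient of 0.28 across genes, which are not independent replicates, and at −0.02 in ρ+ cells. The ρ0 coefficient was 0.21 without glucose replicate 3 and 0.25 to 0.31 without each other ρ0 array. By array, signals relative to each gene's mean correlated with length at 0.18, 0.12 and −0.17 on ρ0 glucose replicates 1, 2 and 3. On the ρ0 arrays without glucose the values were 0.40, 0.34 and 0.31. In the shortest of 5 bins of genes, with coding lengths of 51 to 681 bases, the median ρ0 change was −0.34 and 27.2% of genes fell. In the longest bin, from 2142 bases, the median was 0.05 and 6.46% fell. Without glucose replicate 3 the medians of the shortest and longest bins were −0.27 and −0.02. The same bins had medians of −0.14 and −0.19 in ρ+. The 5′ to 3′ signal ratio of SPT15, a measure of how complete the RNA or cDNA is, was 0.249 ± 0.131 (SD, n = 3) with glucose and 0.14 ± 0.0419 without (exact permutation p = 0.2, two-sided, smallest possible 0.1). For ACT1 it was 0.712 ± 0.103 and 0.648 ± 0.161 (exact permutation p = 0.5). The part of RNA quality in the length trend was not tested. When a smooth trend on length was subtracted, 22 of the 77 mitochondrial ribosomal protein genes were lower (median −0.37) and 13 of the 42 oxidase assembly factors (median −0.43), beside 6.66% of coding genes and their median of 0.03. All 22 and all 13 were among the 38 and 18 that fell before. Falls in import dropped from 9 to 3. For single genes the fall was reduced but kept its call in PET117 (log2 −2.13, adjusted p = 0.000182), MRPS8 (−1.40, 0.000779), TIM9 (−0.69, 0.0188) and COX5B (−0.67, 0.0404). Calls ended for COX6 (−0.39, adjusted p = 0.098), TIM11 (−0.49, 0.0597), TIM12 (−0.55, 0.0716), ATP17 (−0.21, 0.39), ATP18 (−0.13, 0.603) and ATP20 (−0.55, 0.0723). They also ended for the falls of ICL1 (adjusted p = 0.0793), RTG1 (0.184), MIG2 (0.094), NRG2 (0.292), SOL4 (0.21) and PCL1 (0.0566). Rises of ADY2 (0.98, adjusted p = 0.0177), HSP12 (0.85, 0.0206) and CIT1 (0.53, 0.0462) passed the threshold once the trend was removed.

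**Figure D3:**
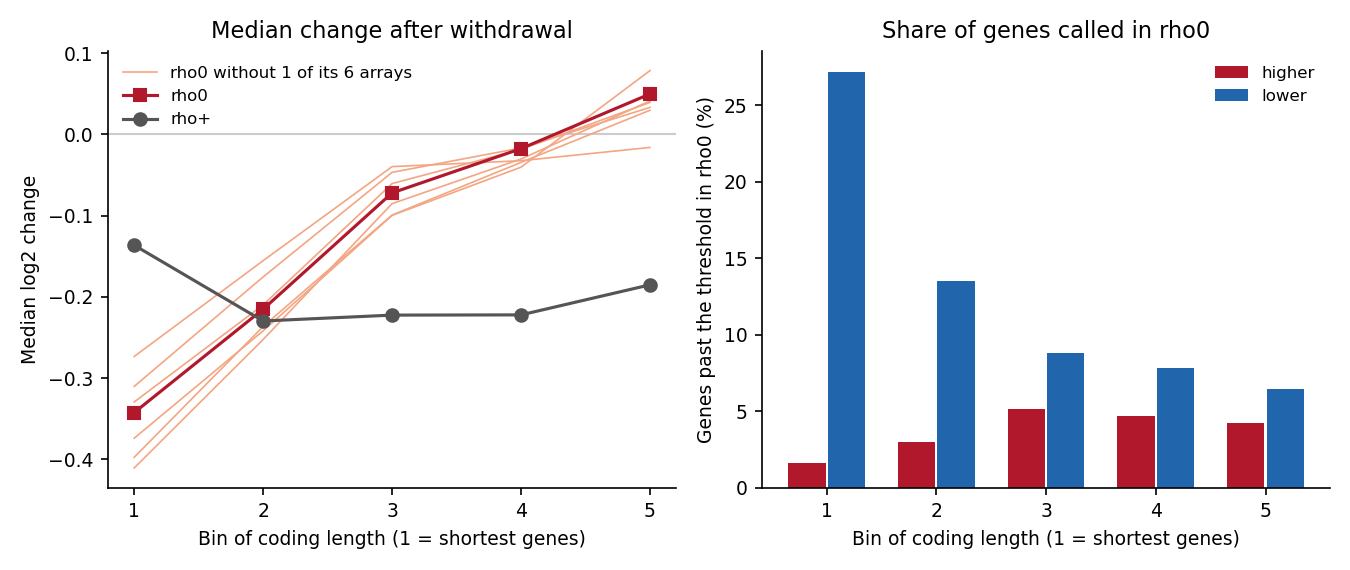
Left, median log2 change by 5 bins of coding length in ρ0 cells (red squares), in ρ0 cells with 1 of the 6 arrays left out (thin lines) and in ρ+ cells (grey circles). Right, percent of genes higher (red) and lower (blue) in ρ0 cells by the same bins: falls go from 27.2% in the shortest to 6.46% in the longest.

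Growth-related genes gave a mixed picture. Cytosolic ribosomal protein genes had 14 falls and no rise among 80 tested, beside 12.4% of all genes lower, with a median of −0.22. With the length trend removed they had 3 rises and 3 falls and a median of 0.10, under quantile normalization 20 falls, and under median centring or poly-A scaling 3 falls each. The largest fall was in RPS28B, of the small subunit, whose probe set can be shared with its paralog: 1479, 1614 and 1945 with glucose and 489, 862 and 562 without (log2 −1.43, adjusted p = 0.000275). The count of falls was 4 without glucose replicate 3 or replicate 1 lacking glucose, and 7 without replicate 2 lacking glucose. Ribosome biogenesis genes had 8 rises and 5 falls among 104, with a median of −0.02. Rises numbered 2 without glucose replicate 3, 3 without replicate 1 lacking glucose and 5 without replicate 2 lacking glucose, and falls ranged from 2 without glucose replicate 3 or replicate 2 lacking glucose to 11 without replicate 3 lacking glucose. ENP1 (log2 0.85, adjusted p = 0.0211) and ERB1 (0.83, 0.0196), both processing factors for ribosomal RNA, rose. ENP1 was lost without glucose replicate 1 or replicate 2 or 3 lacking glucose, and ERB1 without glucose replicate 3 or replicate 1 or 2 lacking glucose (adjusted p 0.0605 to 0.0935). NOP2, an rRNA methyltransferase, rose as well (log2 0.70, adjusted p = 0.0124) but not without glucose replicate 3 (0.0606). The helicase gene DBP7, of the large subunit pathway, fell, with 23.7, 18.2 and 26.8 with glucose and 10.7, 13.2 and 12.01 without (log2 −0.85, adjusted p = 0.00818).

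RNA polymerases I and III had 8 falls and 1 rise among 40 tested subunits and factors, beside 12.4% of all genes lower. There were 5 falls without glucose replicate 3 and 4 without replicate 1 or 2 lacking glucose. RPC25, a subunit of polymerase III, fell from 54.5 ± 12.9 (SD, n = 3) to 17.2 ± 3.01 (log2 −1.57, adjusted p = 0.000162). The largest subunit of the same enzyme, RPO31, passed at adjusted p = 0.0371 (log2 −0.78) and was lost without glucose replicate 1 or replicate 1 or 2 lacking glucose (0.0956 to 0.154). It was also lost without ρ+ glucose replicate 2 (0.0527) or ρ+ replicate 1 lacking glucose (0.0505). The rise, in the polymerase III subunit gene RPC53 (log2 0.49, adjusted p = 0.0485), was lost without glucose replicate 1 or 3 or replicate 1 or 2 lacking glucose (0.0855 to 0.17), and without any 1 of the 6 ρ+ arrays (0.0525 to 0.063). POL2, the catalytic subunit of DNA polymerase ε, rose on its brightest probe set, with 51.0, 36.1 and 26.2 with glucose and 96.2, 134 and 85.1 without (log2 1.46, adjusted p = 0.00258). The mean of its 9 probe sets changed by 0.20 (adjusted p = 0.584).

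Mitotic cyclins fell. CLB2 measured 15.4, 13.6 and 21.2 with glucose and 3.18, 5.62 and 8.03 without (log2 −1.40, adjusted p = 0.00228). CLB1 measured 48.9, 45.4 and 53.7 with glucose and 19.0, 22.4 and 20.3 without (log2 −1.21, adjusted p = 0.000673), and CLB3 changed by −1.03 (adjusted p = 0.0035). For all 3 cyclins every glucose array lay above every array without glucose. PCL1, a G1 cyclin (log2 −1.11, adjusted p = 0.0134), and CDC5, the mitotic polo kinase (−0.88, 0.0247), fell too. PCL1 was lost without glucose replicate 3 (0.0594), and CDC5 without glucose replicate 3 or replicate 1 or 2 lacking glucose (0.0871 to 0.119). On the list of cyclins and mitotic exit genes 7 of 30 fell and none rose, beside 12.4% of all genes lower. The median was −0.30, and 4 fell without glucose replicate 3. In bulk RNA, fewer cells in a stage and less RNA per cell cannot be told apart. Among 33 polarity genes, 4 fell and 2 rose, a share of falls near the 12.4% of all genes, and 7 fell without glucose replicate 2. BOI1, which acts in bud growth and polarity, had the largest fall of all named genes, from 54.4 ± 13.2 (SD, n = 3) to 7.95 ± 3.56 (log2 −2.61 ± 0.25 SE, adjusted p = 2.46e-05), with 1 of the arrays without glucose below the detection level. RHO4, a small GTPase of polarised growth, measured 28.2, 30.2 and 37.3 with glucose and 8.69, 17.9 and 18.1 without (log2 −1.08, adjusted p = 0.0096), and did not pass on the mean of its probe sets (adjusted p = 0.0806). Of 23 mating and haploid genes 2 fell and none rose, beside 12.4% of all genes lower. They were STE6, the exporter of a-factor (log2 −1.26, adjusted p = 0.000583), and STE2, the receptor for α-factor (−0.72, 0.00817). Both are expressed in a cells, but other markers of a cells did not go the same way. AGA2 measured 109, 121 and 110.3 with glucose and 192, 148 and 129 without, and MFA1, MFA2 and BAR1 overlapped between groups.

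Of 26 general stress genes 1 rose and 3 fell, with a median of 0.15. Rises depended on the setting: there were 4 without glucose replicate 2, 2 without replicate 2 lacking glucose, none without glucose replicate 1 or 3 or replicate 3 lacking glucose, 5 with quantile normalization, 4 with median centring, none with poly-A scaling, and 7 beside 2 falls with the length trend removed. HSP12, a membrane-protecting heat shock protein, measured 1158, 1005 and 1889.7 with glucose and 1908, 1199 and 2366 without, with overlapping groups (log2 0.43, adjusted p = 0.242). It passed with the replicate number fitted as a block (adjusted p = 0.045). SSA4, the heat-induced Hsp70, also overlapped at 47.4, 65.2 and 56.3 with glucose and 55.8, 42.5 and 62.2 without. DDR2, a gene of multistress response, was the rise (log2 0.66, adjusted p = 0.0285), lost without glucose replicate 1 or 3 or replicate 3 lacking glucose (0.0553 to 0.109). The paired activators of the general stress response fell: MSN2 measured 37.2, 44.1 and 54.8 with glucose and 16.4, 27.4 and 26.1 without (log2 −0.93, adjusted p = 0.00835) and MSN4 measured 22.2, 27.1 and 26.1 with glucose and 13.1, 12.6 and 9.35 without (log2 −1.02, adjusted p = 0.00818). SOL4 made the third fall (log2 −0.65, adjusted p = 0.0356), lost without glucose replicate 2 or 3 or replicate 1 or 2 lacking glucose (0.0746 to 0.122). It was also lost without ρ+ glucose replicate 2 (0.0514) or 3 (0.0507). GRX4, a monothiol glutaredoxin that takes part in iron signalling, fell from signals of 102 to 211 to signals of 35.9 to 46.1 (log2 −1.61, adjusted p = 0.000818).

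Copper and iron handling showed 7 falls and no rise among 36 tested genes of the iron regulon and transport, beside 12.4% of all genes lower. The median was −0.31, and 4 fell without glucose replicate 3 or replicate 1 lacking glucose. CCC2, the Golgi copper pump that loads the iron oxidase, measured 116, 175 and 96.5 with glucose and 23.2, 30.6 and 22.8 without (log2 −2.24 ± 0.25 SE, adjusted p = 7.85e-05). CTR1, the high-affinity copper transporter, measured 21.9, 16.8 and 26.0 with glucose and 6.13, 3.95 and 10.7 without (log2 −1.51, adjusted p = 0.00364). FTR1, the iron permease, changed by −0.97 (adjusted p = 0.00895). Its partner oxidase FET3 measured 1336, 1582 and 867 with glucose and 1268, 1363 and 868 without and did not pass (log2 −0.10, adjusted p = 0.788), and the cell wall protein gene FIT2 did not either (log2 0.44, adjusted p = 0.262). For both genes replicate 3 was the lowest array of each group. FIT2 passed with the replicate number fitted as a block (adjusted p = 0.0384), but the numbers were not taken as pairs. MRS4, the carrier that brings iron into mitochondria, fell (log2 −0.79, adjusted p = 0.0134), but not past the threshold without glucose replicate 3 (0.0641) or replicate 1 lacking glucose (0.07). NFS1, the cysteine desulfurase of iron-sulfur cluster assembly, rose, with 203, 304 and 83.2 with glucose and 524, 494 and 370.4 without (log2 1.40, adjusted p = 0.00928). Glucose replicate 3 was its lowest array, and the groups did not overlap.

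Some changes lay outside these groups. CYS3, the cystathionine lyase that makes cysteine, measured 282, 203 and 274.6 with glucose and 421, 656 and 470.2 without (log2 1.01, adjusted p = 0.00445). Genes for the vacuolar proton pump had 2 rises and 2 falls among 20, and no falls without glucose replicate 3, without replicate 1 lacking glucose or with the length trend removed. VMA2 measured 640.2, 818 and 561 with glucose and 1189, 1215 and 979.7 without (log2 0.75, adjusted p = 0.00601), and VMA5 measured 382, 199.8 and 261 with glucose and 539, 680.0 and 449 without (log2 1.01, adjusted p = 0.0111), the latter lost without replicate 2 lacking glucose (0.056). Large falls without a role stated here were in PNS1 at 128, 149 and 158.4 with glucose and 30.8, 36.8 and 40.3 without (log2 −1.97, adjusted p = 6.15e-06) and in IRC23 at 113, 104.8 and 165 with glucose and 25.5, 28.8 and 30.2 without (log2 −2.10, adjusted p = 2.68e-05).

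The retrograde pathway, which signals mitochondrial defects to the nucleus and is known to be active in ρ0 cells, had 1 rise (ATO3) and 1 fall among 15 genes. Its marker CIT2, the peroxisomal citrate synthase, measured 769, 615 and 654 with glucose and 640.0, 603 and 718 without (log2 −0.05, adjusted p = 0.911). DLD3, another target, measured 148, 162 and 159 with glucose and 88.9, 109 and 152 without (log2 −0.45, adjusted p = 0.206), and CIT1, the mitochondrial citrate synthase, measured 634, 895 and 647 with glucose and 995, 1068 and 893 without (log2 0.46, adjusted p = 0.0785). All 3 overlapped, and CIT1 passed when glucose replicate 2 was left out (0.0163) or the replicate number was fitted as a block (0.0354). The fall was in RTG1, a transcription factor of the pathway (log2 −0.97, adjusted p = 0.0416), lost without glucose replicate 1 or 3 or replicate 1 lacking glucose (0.105 to 0.179), and without any ρ+ array but the third without glucose (0.0504 to 0.0567). Floored at the detection level it changed by −0.40 (adjusted p = 0.101). HAP3, a DNA-binding subunit of the HAP complex that activates respiratory genes, fell, with 60.4, 46.2 and 84.1 with glucose and 19.3, 26.8 and 26.6 without (log2 −1.31, adjusted p = 0.00101). It was the only called member among 5 HAP factors tested.

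Non-coding RNAs made up 51 of the 246 rises and none of the 666 falls. Of 91 tRNA genes tested 34 rose and none fell (median 0.44), although 88 of them have probe sets that similar transcripts can share. Of 53 snoRNA genes 10 rose and none fell (median 0.33). SNR3, a snoRNA, measured 122, 33.3 and 57.3 with glucose and 288, 201 and 173 without (log2 1.78, adjusted p = 0.00369). The spliceosomal RNAs U1, U6 and U5, encoded by SNR19, SNR6 and SNR7-L, rose by log2 1.31 (adjusted p = 0.00163), 0.81 (0.00841) and 0.89 (0.00743), which was 3 of 4 tested. RPR1, the RNA of nuclear RNase P, measured 123, 274 and 111 with glucose and 418, 307 and 340.0 without (log2 1.17, adjusted p = 0.00817). RDN18-1, for the small-subunit ribosomal RNA, measured 23.9, 34.8 and 25.5 with glucose and 209, 47.7 and 137 without (log2 1.95, adjusted p = 0.00286), with a shared probe set.

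These RNAs mostly lack poly(A) tails, and the samples had been selected for them. The mean log2 signal of the 91 tRNA genes was 7.29 ± 0.191 (SD, n = 3) with glucose and 7.83 ± 0.217 without, and every array without glucose lay above every array with it (exact permutation p = 0.1, two-sided, the smallest of 20 assignments). The 10 ribosomal RNA control probe sets moved the same way, from 7.52 ± 0.384 to 8.35 ± 0.521, with 1 overlap (exact permutation p = 0.2). The part of residual ribosomal RNA in the other non-coding signals was not tested. In a fit to protein-coding genes alone 195 rises and 660 falls were called. In ρ+ cells 42 tRNA genes rose and 1 fell, with a median of 0.48.

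**Figure D4:**
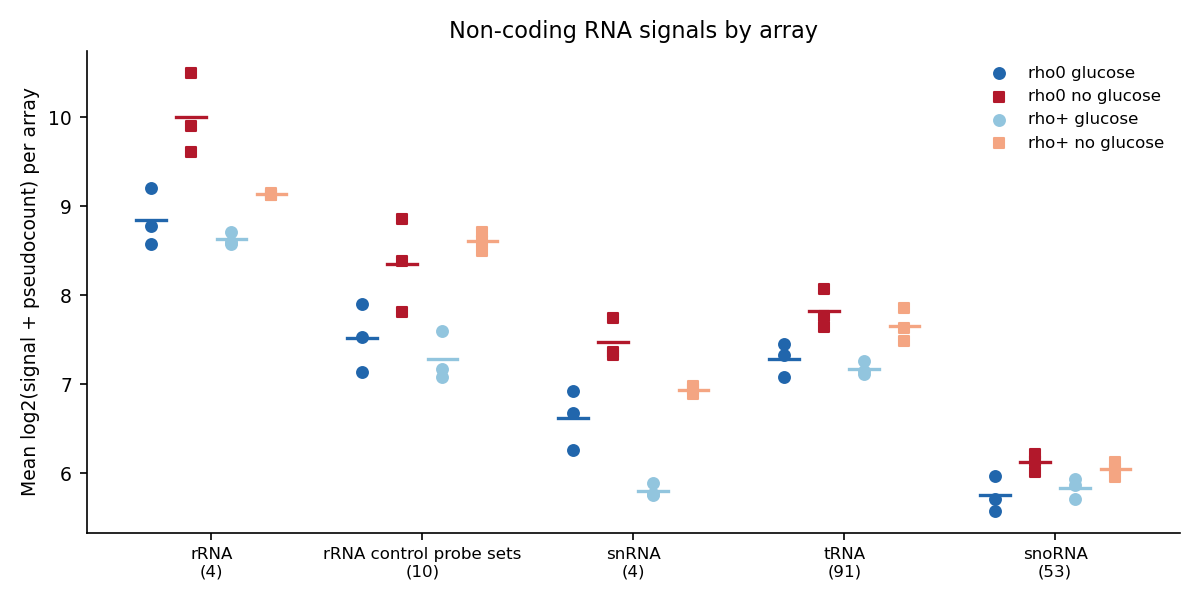
Mean log2(signal + 1.50) per array of 5 classes of non-coding RNA, with the number of genes or probe sets in parentheses. Dark circles and squares are ρ0 cells with and without glucose, pale ones ρ+ cells, 3 arrays each, with bars at the group means; in ρ0 cells every class but the rRNA control probe sets separates the groups fully.

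The ρ0 response overlapped in part with that of ρ+ cells. Of the 246 rises in ρ0, 101 were also rises in ρ+ (41.1% of the ρ0 rises and 18.0% of the 561 in ρ+, where 10.5% of genes rose). Of the 666 falls, 364 were also falls in ρ+ (54.7% and 30.5% of the 1193 in ρ+, where 22.3% fell). The difference of the responses, ρ0 minus ρ+, was tested in the same fit and was called for 371 genes, higher for 84 (1.57%) and lower for 287 (5.35%). Of the 287, 187 were not called in ρ0, 77 fell and 23 rose. Of the 371, 116 were called in ρ0 at all. The count of 84 was 3 with poly-A scaling and 245 with array quality weights. It was 50 without ρ0 replicate 1 lacking glucose, 134 without ρ0 glucose replicate 2, 46, 32 and 39 without ρ+ glucose replicates 1, 2 and 3, and 48 without ρ+ replicate 3 lacking glucose. The median standard error of the difference was 0.301. In simulated data the fit recovered 35% of 2-fold differences, so an uncalled difference does not mean equal responses.

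Many of the named genes of carbon starvation rose less in ρ0 or were not called there. ADY2 had a ρ+ change of 5.22 and a difference of −4.48 ± 0.37 (SE, adjusted p = 2.71e-06). POT1 and CTA1, near the detection level in ρ0, had ρ+ changes of 4.05 and 4.11 and differences of −4.07 (adjusted p = 2.92e-06) and −4.08 (5.88e-07). JEN1 rose in both and by less in ρ0, with a ρ+ change of 4.29 and a difference of −3.17 (adjusted p = 3.38e-06). So did RGI2 (ρ+ 6.80, difference −3.52, adjusted p = 5.47e-05), ATO2 (4.26, −2.65, 4.96e-06) and SPG4 (5.79, −1.48, 0.00701). The same held for SUC2 (3.36, −2.38, 3.54e-05), ADH2 (2.33, −1.70, 0.000214), TMA10 (4.25, −2.95, 5.57e-05) and MMO1 (4.15, −2.60, 0.000104). For HXT2 the difference was not called (ρ+ 2.80, difference −0.74, adjusted p = 0.0907), though it passed without ρ0 replicate 3 lacking glucose (0.0487). Of 8 tested hexose transporters 4 rose in each strain, with medians of 0.55 in ρ0 and 0.41 in ρ+, and no difference was called. HXK1 and RGI1, uncalled in ρ0, had differences of −1.58 (adjusted p = 0.00152) and −2.01 (0.00577).

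By list, the difference was lower for 13 of 27 respiratory chain genes, 9 of 14 genes of fatty acid oxidation, 8 of 22 of the glyoxylate cycle and gluconeogenesis and 7 of 26 stress genes, beside 5.35% of all genes, and higher for none of them. Median ρ+ changes on these lists were 0.87, 1.47, 0.86 and 0.65, beside −0.16, −0.01, −0.03 and 0.15 in ρ0. The difference also correlated with coding length, at a Spearman coefficient of 0.27 over 5199 protein-coding genes. The respiratory chain list is one of short genes, with a median coding length of 462 bases. With the length trend removed, 58 coding genes were higher and 273 lower for the difference. Counts by list for that fit are not given here. Among stress genes the ρ+ changes of HSP12, SSA4 and DDR2 were 3.42, 3.06 and 2.69, with differences of −2.99 (adjusted p = 8.2e-05), −3.14 (3.42e-06) and −2.02 (0.000244). INH1 changed by 2.18 in ρ+ (difference −2.55, adjusted p = 5.87e-05). The mitochondrial ribosomal protein genes differed less: 7 of 77 were lower and 1 higher for the difference, and 28 of 77 fell in ρ+, with a median of −0.41.

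Some genes were called in opposite directions, 30 of them lower in ρ0 and higher in ρ+ and 2 the other way. MEP2 was the clearest, with a ρ+ change of 2.29 (adjusted p = 3.29e-07) and a difference of −3.64 ± 0.26 (SE, adjusted p = 5.88e-07). MRS4 (ρ+ 1.50, difference −2.29, adjusted p = 0.000119), COX5B (0.87, −1.89, 0.00201), ATP17 (1.17, −1.80, 0.000207) and ICL1 (1.71, −2.27, 5.8e-05) were among them. Some of these ρ0 falls were fragile: the call was lost in 20 of 30 alternative settings for ICL1, 7 for ATP17 and 4 for MRS4. Their differences stayed called in all 28 settings that tested them. PCK1 rose in ρ+ (1.49) and was uncalled in ρ0 (difference −1.89, adjusted p = 0.00367). The 2 genes of the other kind were the snoRNAs SNR74 and SNR128, higher in ρ0 and lower in ρ+. SNR74 measured 24.3, 14.8 and 21.2 with glucose and 50.3, 58.9 and 47.4 without in ρ0 cells (log2 1.34, adjusted p = 0.000888) and had a difference of 2.02 (adjusted p = 0.000695). SNR128, named after its value was seen, changed by 1.06 in ρ0 (adjusted p = 0.00622) with a difference of 1.76 (adjusted p = 0.00308). Some falls were called in ρ0 alone and tested as different from ρ+: RPM2 changed by 0.13 in ρ+ (difference −2.26, adjusted p = 0.0103) and PNS1 by −0.36 (−1.61, 0.000397).

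**Figure D5:**
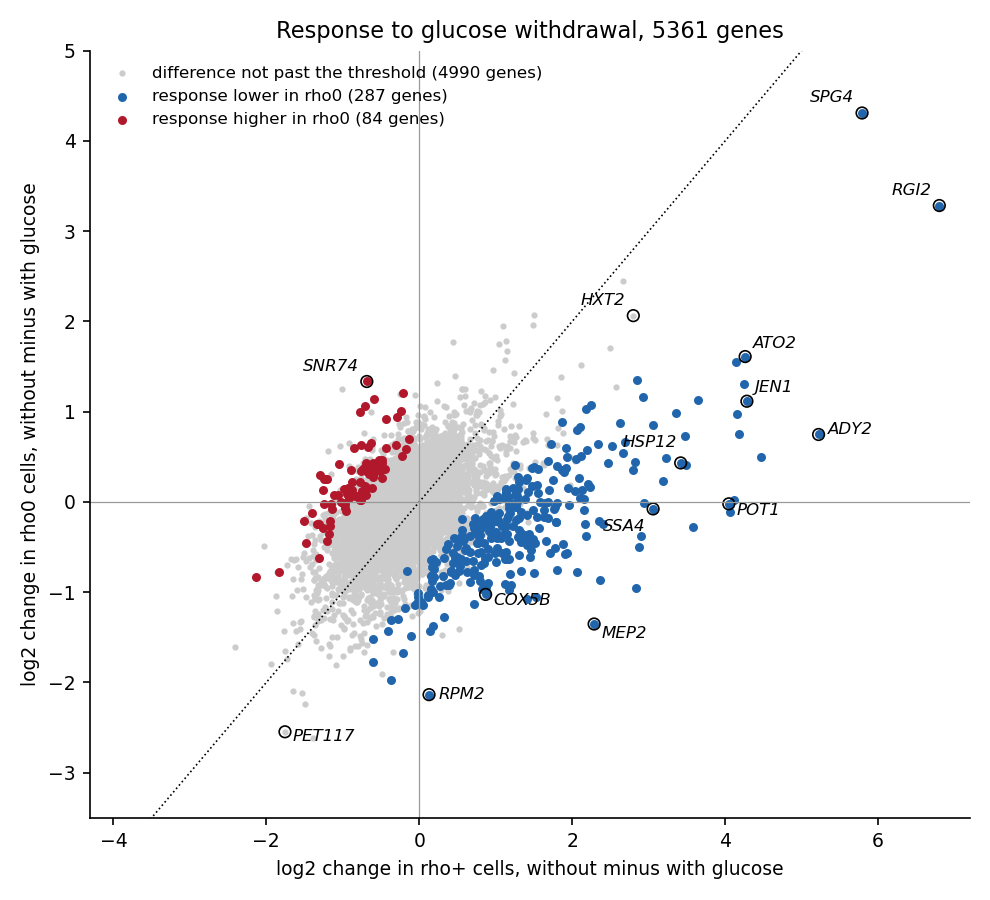
Log2 change after glucose withdrawal in ρ+ cells (x axis) and ρ0 cells (y axis) for 5361 genes. Blue points had a lower (287) and red points a higher (84) response in ρ0 at adjusted p under 0.05 for the difference, the dotted line marks equal responses, and circled genes are named in the text; most blue points lie to the right of 0 and below the line.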

How the data were processed

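For each of 9335 probe sets the authors deposited a linear intensity from every array; MAS5 is the tool named in the submitters' processing notes. The arrays were 1-colour and the RNA was poly(A)-selected and labelled with biotin, per the labels' protocols. The version of MAS5, its scaling target and the build behind the array are not given in the sources used. The values look scaled: after trimming 2% of probe sets at each end, array means were 99.95 to 99.96. The number of arrays limits the precision.

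Of these probe sets, 6504 carried a single gene in the platform annotation and stood for 5656 genes, named through the RefSeq gene table of assembly R64; 328 carried several genes and 2503 none here. The probe set with the highest mean stood for a gene. A gene was tested if a group mean exceeded 5.82, the 25th percentile of all signals. The pseudocount of 1.50 is the 10th percentile, and fold changes on this scale understate those of dim genes. Where a gene was undetected on all arrays of its dimmer group, the fold is a bound against the detection level. Using limma 3.58.1 (R 4.3.3), group means of all 12 arrays in 4 groups were fitted (lmFit, contrasts.fit, eBayes with trend, 8 residual degrees of freedom), two-sided, with Benjamini-Hochberg adjustment over 5361 genes. No probe set sequences were used.

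Named genes are the 12 largest called changes in each direction whose groups did not overlap and whose brighter group was detected on every array, up to 4 called members of each of 49 lists, fixed genes of carbon use and stress, the 8 largest called differences of the responses, and RGI1 with RGI2; the text names part of them. ATP1, ATP17, ATP18, MRP4, SNR128, GLK1, MIG2, NRG2, TOM40, NOP2, RPO31, RPC53, CDC5, SNR6 and SNR7-L lie outside this rule and were named after their values were seen. The members and lists were chosen with earlier results of these data known. Array control and non-coding class means were compared with exact permutation tests in scipy 1.17.1. The fit was tested on simulated data with known changes, 100 of 2-fold and 100 of 4-fold. For the ρ0 change it recovered 78% and 96% of these. For the difference of the responses it recovered 35% and 91%. Each had 7 false calls among 5161 unchanged genes. The simulated noise was independent between genes and held no length trend. Alternatives in scaling, pseudocount, filter, probe set choice, model and arrays were tried; removal of the length trend, of shared probe sets and of non-coding genes, and a fit of all probe sets, were added after the data were seen.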

Additional observations from a re-analysis of the deposited data

Results flagged for a closer look

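The results below are those in which the response to glucose withdrawal differed between ρ0 and ρ+ cells by a test of the difference itself, in the fit to all 12 arrays. Over all genes the response was higher in ρ0 for 84 and lower for 287. All values below are the log2 response in ρ0 minus that in ρ+.

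Among transporters and enzymes of carbon use the differences were −4.48 for ADY2, −3.17 for JEN1, −2.65 for ATO2, −2.38 for SUC2, −1.58 for HXK1, −1.70 for ADH2, −2.27 for ICL1, −1.89 for PCK1, −4.07 for POT1 and −4.08 for CTA1. For the ammonium permease MEP2 the value was −3.64, with a fall in ρ0 and a rise in ρ+.

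Genes of stationary phase and respiratory growth had differences of −3.52 for RGI2, −2.01 for RGI1, −1.48 for SPG4 and −2.95 for TMA10. For MMO1, on no list with these, it was −2.60. The stress genes SSA4, HSP12 and DDR2 had −3.14, −2.99 and −2.02.

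For genes of mitochondria the differences were −1.89 for COX5B, −1.80 for ATP17, −2.55 for INH1, −2.29 for MRS4 and −2.26 for RPM2. PNS1 had −1.61. The snoRNA genes SNR74 and SNR128 were the genes given here with a difference above 0, at 2.02 and 1.76.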

How the results depend on the processing

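With 3 arrays a group, leaving out 1 of the 12 arrays gave 110 to 355 genes higher and 360 to 767 lower in ρ0, and 32 to 134 higher and 198 to 327 lower for the difference of the responses, against 246, 666, 84 and 287. In a fit to the 6 ρ0 arrays alone, with fewer residual degrees of freedom, 86 were higher and 331 lower. Median centring gave 444 higher and 382 lower, and scaling to 8 poly-A control probe sets gave 61 and 413, with 3 higher for the difference. Array quality weights gave 245 higher for the difference. Removal of the length trend, chosen after seeing the data, left 347 higher and 346 lower. For the last 2 settings the cause was not tested.

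Of 95 named ρ0 changes past the threshold, 53 stayed past it in the same direction under every alternative that tested them and none changed sign; for the 27 named differences past it, all 27 stayed. Poly-A scaling ended 32 of these calls and the fit to the ρ0 arrays alone 26. Some values that did not pass changed sign: HXT3 was 0.10 with median centring, 0.0066 without both arrays of low control signal, 0.051 without ρ0 glucose replicate 2 and 0.04 without ρ0 replicate 3 lacking glucose (−0.17 to 0.051 over single arrays left out). FET3 was 0.075, 0.016, 0.089 and 0.10 under the same 4 settings (−0.34 to 0.10). CIT2 was 0.12 with median centring, 0.031 with the length trend removed, 0.040 without ρ0 glucose replicate 1 and 0.0032 without ρ0 replicate 2 lacking glucose (−0.12 to 0.040). INH1 was 0.063 with the length trend removed, and RGI1 was −0.17 without ρ0 glucose replicate 3 (−0.17 to 0.57).

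The replicate numbers were checked as a pairing. Deviations of same-numbered ρ0 arrays with and without glucose correlated at 2.33e-05, 0.16 and 0.52 for replicates 1, 2 and 3. Of the 3 glucose arrays, 1 correlated best with its own number. Deviations from a group mean sum to 0 over its 3 arrays, so these correlations cannot decide whether the numbers mark pairs. The labels do not say so either, and the main fit did not take the numbers as pairs. With the replicate number as a block within strain, 367 genes were higher and 851 lower, and for the difference 152 and 360; in the block fit to the 6 ρ0 arrays alone 252 were higher and 620 lower. Among named genes the block brought ADY2 (adjusted p = 0.0106), FIT2 (0.0384), HSP12 (0.045) and CIT1 (0.0354) past the threshold and ended the call of HXT5 (0.0516). At unadjusted p under 0.05 the main comparison had 524 genes higher and 1188 lower. Signals near the detection level of 5.82 limit what can be said of dim genes such as POT1, CTA1, SNF3 and RTG1.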

Other observations

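Of the lists not described above, mitochondrial carriers had 7 falls and 2 rises among 31 tested, with a median of −0.16; the falls numbered 0 without ρ0 glucose replicate 3, 1 without ρ0 replicate 1 lacking glucose and 4 without ρ0 replicate 3 lacking glucose. Ergosterol synthesis had 2 rises and no fall among 26 (median 0.10), where in ρ+ cells 1 rose and 11 fell (median −0.41); no gene's difference of the responses was called. The 2 rises became none without ρ0 glucose replicate 3 or ρ0 replicate 2 lacking glucose and 4 without ρ0 glucose replicate 2 or ρ0 replicate 3 lacking glucose. Sulfate assimilation had 2 rises and 5 falls among 25, or 1 fall without ρ0 glucose replicate 3 or ρ0 replicate 1 lacking glucose. Glycerol synthesis and use had no call among 11.

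Among 1526 tested probe sets without a single named gene, 33 were higher and 56 lower, with a median log2 change of 0.01. Of 40 called genes with another probe set above the detection level, 32 had all their probe sets changed in the same direction.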
